A study of Caenorhabditis elegans with 2 samples.

Results

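The genes described here are the 4 DNA replication and cell cycle genes cdc-48.1, cdc-48.2, pcn-1 and cdk-7, of 19973 protein-coding genes on the nuclear chromosomes of Caenorhabditis elegans. Of these, pcn-1, cdk-7 and cdc-48.1 were chosen by the measured signal of F10E7.11, each for a summit of the authors' reproducible peak list at its promoter, and cdc-48.2 was chosen as the paralogue of cdc-48.1. Their presence in the peak list, and their signal values and ranks there, are therefore a description and not a finding. For each gene, regions were taken whose summit lay within the gene or in the 1000 bp upstream of it.

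Binding was mapped by chromatin immunoprecipitation and sequencing (ChIP-seq) in whole worms of strain OP658, which has the unc-119(tm4063) mutation and the integrated transgene wgIs658. The transgene produces F10E7.11 with GFP and FLAG at its C-terminal end, and the description field gives an anti-GFP antibody while the antibody field names F10E7.11. The worms were young adults of mixed sex, 63 hours after synchronisation as starved L1 larvae, and formed 1 group of 2 biological replicates with no other condition. Which promoter drives the transgene, and in which cells, is not stated in the labels, and a whole-worm list cannot tell a site bound in few cells from a site bound weakly in many.

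CDC-48 is an AAA ATPase, known as p97 or VCP in mammals, that pulls ubiquitin-marked proteins out of complexes, membranes and chromatin. In C. elegans it removes replication factors from chromatin, among them the replicative helicase when replication ends. The pcn-1 gene encodes PCNA, the sliding clamp that holds DNA polymerases on their template, and cdk-7 encodes a kinase that activates other cyclin-dependent kinases and also works in transcription as part of TFIIH. In adult worms, cell division is a property of the germ line, since the somatic cells have stopped dividing. Many C. elegans messenger RNAs have their own front end replaced by a trans-spliced leader, so an annotated 5′ end may lie downstream of the start of transcription.

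Shown are the sequences under the summits of the strongest promoter peaks among the genes described. With them stands the upstream sequence of cdc-48.2, the paralogue of cdc-48.1 that had no such peak. Each sequence is 201 bases of assembly WBcel235 from RefSeq, which is ce11, written 5′ to 3′ on the strand of the gene. For cdc-48.1 (minus strand, chrII:10563453-10563653) and pcn-1 (minus strand, chrIV:4049640-4049840) the summit is the middle base. For cdc-48.2 (plus strand, chrII:8138295-8138495) the window ends at the base before the annotated 5′ end. Capitals mark matches, on either strand, to any of the searched words named further on, and the cdc-48.2 window has none.
cdc-48.1: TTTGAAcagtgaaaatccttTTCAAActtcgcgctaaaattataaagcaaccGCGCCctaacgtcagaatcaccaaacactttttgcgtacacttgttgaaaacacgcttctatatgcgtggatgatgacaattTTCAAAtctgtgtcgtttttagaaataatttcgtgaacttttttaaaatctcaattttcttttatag
pcn-1: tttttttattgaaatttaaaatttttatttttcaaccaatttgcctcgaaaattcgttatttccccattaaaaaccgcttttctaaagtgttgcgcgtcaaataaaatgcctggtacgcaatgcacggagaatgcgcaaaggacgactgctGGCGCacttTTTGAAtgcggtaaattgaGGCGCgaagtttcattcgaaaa
cdc-48.2: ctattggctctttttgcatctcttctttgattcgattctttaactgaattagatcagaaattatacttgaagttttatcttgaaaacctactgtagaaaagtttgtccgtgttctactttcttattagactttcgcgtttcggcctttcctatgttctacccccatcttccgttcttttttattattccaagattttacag

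The word search covered ACGCAG with its overlapping relative GACGCA, and also CACTCG, further CTGCGC with CCTGCG beside it, and CGAGAG, which were known to be frequent at the peaks of this study, the GAGA repeat GAGAGA, the SP1 box GGGCGG, the cores GGCGC and CCCGC found in many E2F sites, and the CHR element TTTGAA of cell cycle promoters. The capitals at cdc-48.1 are 3 copies of TTTGAA and 1 of GGCGC. Those at pcn-1 are 2 copies of GGCGC and 1 of TTTGAA. The core GGCGC lay in 27.3% of the 575 windows of the same length at peak summits and in 9.41% of the windows directly upstream of all 19973 genes. TTTGAA lay in 29.0% of the peak windows and in 50.1% of the upstream windows, so a match to it is common in either. The 6 words frequent at the peaks, from CGAGAG (19.7% of peak windows) to CCTGCG (8.87%), were absent from the windows of cdc-48.1, pcn-1 and cdc-48.2. Each of these words is also missing from most peak windows, so its absence sets none of the genes apart. The share of windows without any of the 6 was not counted. A match is a match of letters and not a bound site. The search says nothing of which factor binds there.

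The peak windows of cdc-48.1 and pcn-1 were poorer in G and C than most peak windows. The cdc-48.1 window held 33.3% G+C and the pcn-1 window 37.3%, while all peak windows had a mean of 43.5% ± 7.74 (SD, 575 windows). Of the 575 windows, 91.0% had at least the G+C content of cdc-48.1 and 79.7% at least that of pcn-1. The other pooled windows had a mean of 40.9% ± 7.65 (SD, 17711 windows). The windows upstream of all genes had a mean of 33.7% ± 6.43 (SD, 19973 windows), and the upstream window of cdc-48.2 held 33.8%.

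The authors' lists hold candidate regions, of which most are background by design. Replicate 1 had 18116 regions, replicate 2 had 25275 and the pool of both had 18286, of which 575 passed the authors' irreproducible discovery rate (IDR) threshold. The signal value of a region is that of the authors' peak caller. Its scale differs between lists, with a median of 52.9 in replicate 1 and 23.7 in replicate 2, so levels are read within a list and places between lists by rank, where rank 1 is the strongest. The q-value is the authors' own. The files do not give the depth of reads, and the values therefore carry no counting error.

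An IDR summit lay at 3 of the 4 genes, those chosen for it, beside 2.4% of all protein-coding genes by the same window. In the promoter window, which runs from 500 bp before the 5′ end to 100 bp behind it, it again lay at 3 of 4, beside 0.886% of all genes. Any pooled candidate region was found at 4 of 4, beside 45.9% of all genes, so a candidate region alone sets none of them apart. One with a q-value under 0.05 lay at 3 of 4, beside 4.15%. The 3 peaks spanned the IDR list. That of cdc-48.1 ranked 74 of 575, that of pcn-1 215 and that of cdk-7 482. The lowest signal value in the list was 154.97 and the highest outside it 154.96, and cdk-7 stood at 163. Among the 9163 protein-coding genes with a pooled region in the window, 0.72% had a strongest signal at least as high as cdc-48.1, 2.17% as high as pcn-1, 4.53% as high as cdk-7 and 14.4% as high as cdc-48.2.

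The gene cdc-48.1 (WBGene00007352, chromosome II from 10560036 to 10563407, minus strand) had the strongest peak of the 4. It spanned 10563335 to 10563770 with its summit 146 bp upstream of the 5′ end and 163 bp upstream of the start codon. Its signal value was 204 in replicate 1, 66.8 in replicate 2 and 266 in the pooled list. Both replicates placed it high, at rank 70 of 18116 and rank 170 of 25275. The summits of the pooled list and of replicate 1 fell on the same base, and that of replicate 2 lay 29 bp farther upstream. The pooled q-value was 0.00183, and those of the replicates were 0.00188 and 0.00139.

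The surroundings of that peak hold no other 5′ end of a protein-coding gene within 1000 bp. The next gene upstream, C06A1.6, lies on the same strand, and its 3′ end is 559 bp from the summit in a gap of 704 bp between the genes. The nearest small RNA gene, the snoRNA gene C06A1.9 in an intron of cdc-48.1, lies 489 bp from the summit. No candidate region of any list had a summit within C06A1.9.

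The body of cdc-48.1 held 4 further pooled regions, none of them in the IDR list. The strongest, with its summit 983 bp into the gene in a coding exon, had a pooled signal value of 125 (rank 1249, q = 0.0741). Its summit lay on the same base in replicate 1 and 2 bp away in replicate 2, but its rank was 1410 in replicate 1 and 5281 in replicate 2. The others had pooled signal values of 90.8, 88.4 and 72.9. The region with a value of 72.9, in the 3′ untranslated part, ranked 2077 in replicate 1, and replicate 2 had no summit within 150 bp of it.

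A snoRNA gene inside cdc-48.1 coincided with the highest-ranked inner region of replicate 2. The summit of that region lay within C06A1.8, an intronic snoRNA gene from 10560717 to 10560934, with a signal value of 45.5 and rank 926 (q = 0.0416). In replicate 1 and in the pooled list the nearest summit lay 17 bp outside the snoRNA gene in a coding exon, at rank 7637 and 4083. The IDR list had no peak there. Products of snoRNA genes direct chemical changes in other RNAs. C06A1.8 was chosen after its values were seen.

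The paralogue cdc-48.2 (WBGene00008053, chromosome II from 8138496 to 8141230, plus strand) had no IDR peak and no pooled region in its promoter window. Its strongest pooled region, from 8139001 to 8139436, had its summit 723 bp into the gene in a coding exon, with a signal value of 115 (rank 1637, q = 0.135). The matching region of replicate 1 had a signal value of 84.5 and rank 1687, and replicate 2 had no summit within 150 bp. The other pooled region, 957 bp into the gene, had a pooled signal value of 90.7. It ranked 15765 of 18116 in replicate 1 and 1672 of 25275 in replicate 2, so the replicates placed it far apart. The only region upstream of cdc-48.2 in any list was in replicate 2, 490 bp from the 5′ end, with a signal value of 25.6 at rank 9809 (q = 0.694).

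Between the paralogues, the strongest pooled signal at cdc-48.1 was 2.31 times that at cdc-48.2. The ratio was 2.41 in replicate 1 and 1.67 in replicate 2, so cdc-48.1 was higher in both. Because cdc-48.1 was chosen for its peak and cdc-48.2 as its paralogue, the choice favours this difference, and it has no test. These ratios set the promoter peak of cdc-48.1 against regions in coding exons of cdc-48.2, and not against the same region each time. The cdc-48.2 region used lay 723 bp into the gene in the pooled list and 722 bp in replicate 1, but 963 bp in replicate 2. In the promoter windows alone the pooled list gave 266 for cdc-48.1 and no region for cdc-48.2. In replicate 2 it gave 66.8 and 25.6, and in replicate 1 it gave 204 and no region. The genes also differ in their surroundings. The next protein-coding gene upstream of cdc-48.2 is ctns-1, on the opposite strand, across a gap of 1577 bp.

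The paralogues encode closely related proteins from clearly different DNA. Translated from the annotation, the products have 809 and 810 residues, and 720 of 817 aligned positions were identical, or 88.1%. Their coding sequences were 75.7% identical. The longest run of bases shared by the genes was 35, and the longest shared by their upstream 1000 bp was 10. None of the 2700 stretches of 36 bases in cdc-48.2 occurred in cdc-48.1. In the strongest pooled region of each of the 4 genes, 401 of 401 such stretches occurred once in the genome. The same held for 965 of 965 stretches in the 1000 bp upstream of cdc-48.2. The read length is not given in the sources used here, and the part of read placement in the difference was not tested.

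**Figure D1:**
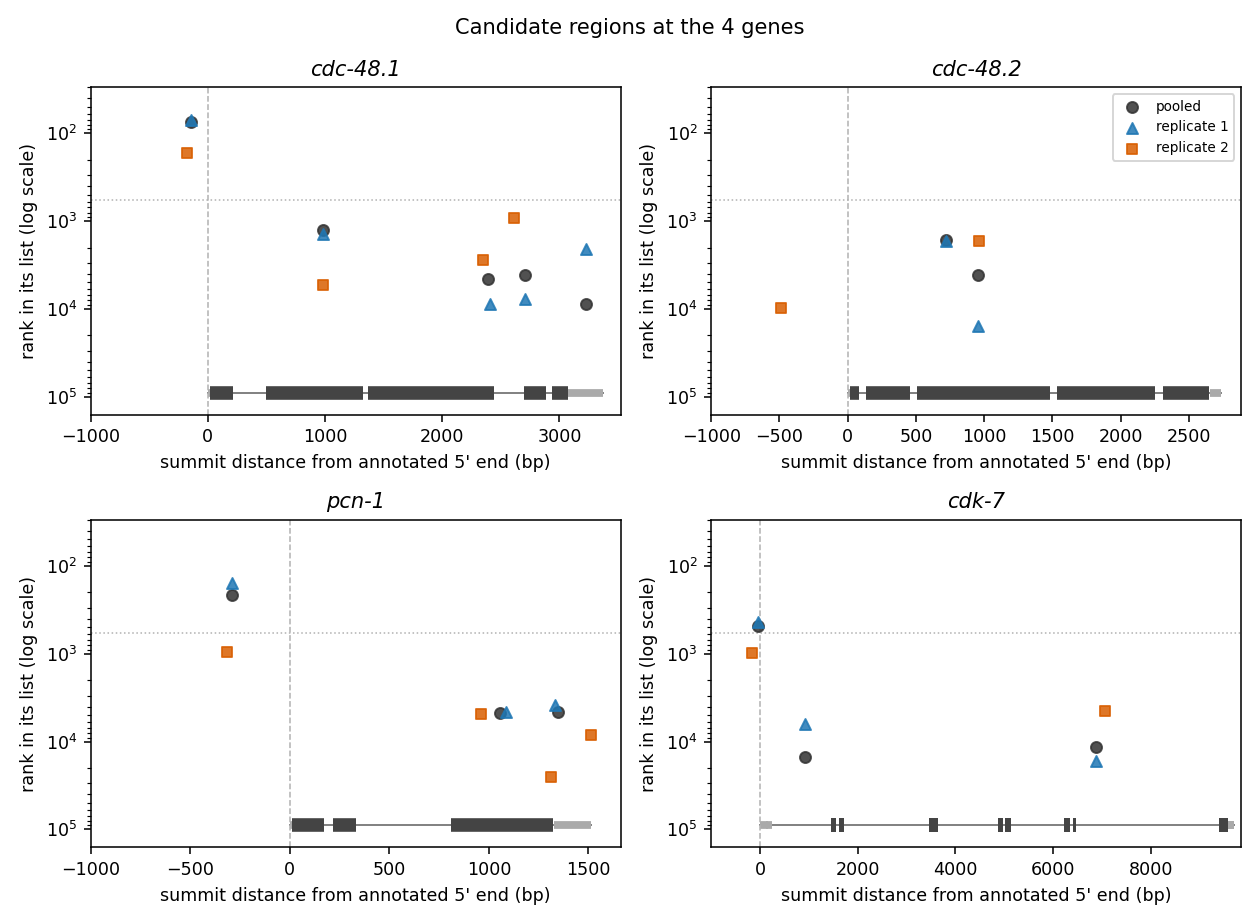
Each panel plots, for 1 gene, the summit distance from the annotated 5′ end (bp, x axis) against the rank of the region in its own list (log scale, strongest at the top), for the pooled list (circles), replicate 1 (triangles) and replicate 2 (squares). Black blocks are coding exons, grey blocks untranslated exons, and the dotted line marks rank 575. The regions above that line lie upstream of pcn-1, cdk-7 and cdc-48.1, and cdc-48.2 has none.

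The gene pcn-1 (WBGene00003955, chromosome IV from 4047937 to 4049448, minus strand) had a peak between those of cdc-48.1 and cdk-7 in pooled signal. The peak spanned 4049522 to 4049957, with its summit 292 bp upstream of the 5′ end and 305 bp upstream of the start codon. Its signal value was 160 in replicate 1, 45.2 in replicate 2 and 201 in the pooled list. Replicate 1 ranked it 155 and replicate 2 ranked it 956, so it was weaker relative to other regions in replicate 2. There its q-value was 0.0466, against 0.00188 in replicate 1. The replicate 2 summit lay 22 bp farther upstream.

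The pcn-1 peak lay wholly in the 557 bp between pcn-1 and wrt-5, a Hedgehog-related gene on the same strand whose 3′ end was 266 bp from the summit. Apart from wrt-5, no other gene and no other 5′ end was within 1000 bp of the summit. Inside pcn-1 the pooled list held 2 regions, with signal values of 88.2 (3′ untranslated part) and 87.1 (coding exon). The stronger of them ranked 3862 in replicate 1 and 25184 of 25275 in replicate 2. Neither had a q-value under 0.05 in any list.

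The gene cdk-7 (WBGene00000408, chromosome I from 2281503 to 2291205, minus strand) had the weakest of the 3 peaks, from 2291024 to 2291459. The signal value was 124 in replicate 1, 45.1 in replicate 2 and 163 in the pooled list, with ranks of 434, 976 and 482. The q-value was 0.00807 in replicate 1, 0.0497 in replicate 2 and 0.0135 in the pooled list. The summit of replicate 2 lay 132 bp upstream of the pooled summit, an offset reached by 3.48% of the 575 IDR peaks, whose replicate 2 summits had a median offset of 17 bp where both replicates had a summit within 150 bp.

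The place of the cdk-7 peak depends on which transcript is taken. Ensembl lists 3 transcripts with the same start codon. From the farthest 5′ end, which bounds the gene, the summit lay 37 bp upstream, and from the next it lay 151 bp upstream. Those transcripts begin with an untranslated first exon. The third transcript begins next to the start codon, and from its 5′ end the summit lay 1489 bp upstream. RefSeq lists the last of these alone. By the RefSeq gene bounds, chosen after seeing the data, the peak falls outside the window of 1000 bp, and 2 of the 4 genes then had an IDR summit. Upstream, the next protein-coding gene is Y39G10AR.11 on the opposite strand across a gap of 1921 bp. The 2 other pooled regions of cdk-7 lay in introns with signal values of 66.6 and 61.0, and replicate 2 had no summit within 150 bp of either.

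The window of 201 bp at the cdk-7 summit held other words than those of cdc-48.1 and pcn-1. Its G+C content was 47.8%, above their 33.3% and 37.3% and near the 46.8% at the strongest pooled summit of cdc-48.2, in a coding exon. It held GACGCA in 2 places, ACGCAG in 1 that overlaps a GACGCA, and GAGAGA in 1. GACGCA lay in 13.4% of the peak windows, 7.39% of the other pooled windows and 6.11% of the upstream windows. For ACGCAG these shares were 16.7%, 7.15% and 5.88%, and for GAGAGA 26.8%, 15.5% and 16.4%. Neither GGCGC nor TTTGAA was found in it.

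The 3 peaks share a place upstream of the 5′ end, which the choice of promoter peaks favours. Of 153 IDR summits in a promoter window, 128 lay upstream of the nearest protein-coding 5′ end, or 83.7%. The window holds 500 bp before the 5′ end but 100 bp behind it, so its shape alone favours an upstream place. This share therefore does not show a preference for upstream positions. The median position of the 153 summits was 146 bp upstream, the same as at cdc-48.1, with quartiles at 263 and 28 bp upstream. Summits farther upstream than that of pcn-1 made up 19.0%, and 70.6% lay farther upstream than that of cdk-7. All 3 replicate 2 summits lay farther from the gene than the pooled summit. Over 151 promoter peaks with a replicate 2 summit within 150 bp, 80 did so, or 53.0%.

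**Figure D2:**
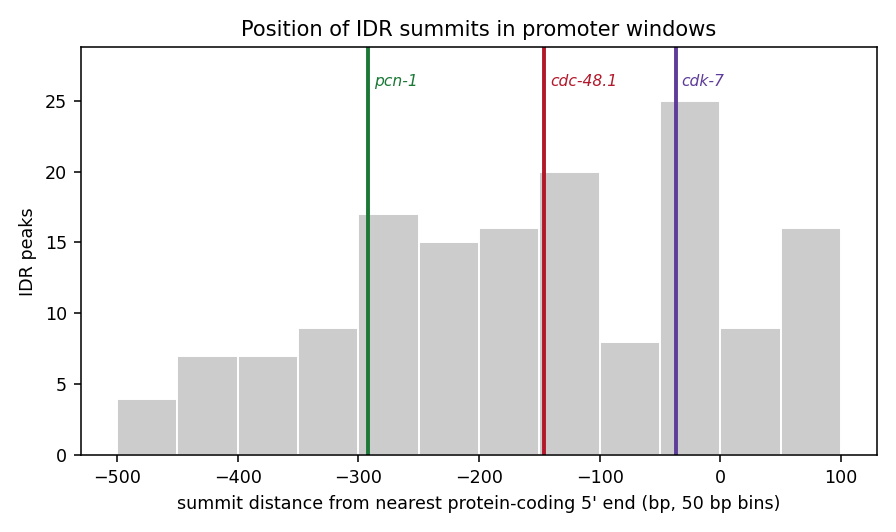
The histogram counts the 153 IDR peaks with a summit in a promoter window (y axis) by summit distance from the nearest protein-coding 5′ end (bp, x axis, bins of 50 bp), with coloured lines at the 3 genes. The pcn-1 peak lies at 292 bp upstream, cdc-48.1 at 146 and cdk-7 at 37 by its farthest 5′ end.

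The 3 peaks also ranked higher in replicate 1 than in replicate 2, as did 340 of 556 IDR peaks with a summit within 150 bp in both replicates, or 61.2%. The median ratio of the ranks was 1.51. A ratio at least as high as that of cdc-48.1 was found at 37.4% of these peaks, as that of cdk-7 at 39.9% and as that of pcn-1 at 17.8%. Among the 575 strongest regions of replicate 1 alone, regions lay at the same 3 genes, beside 2.45% of all genes. Among the 575 strongest of replicate 2 alone, only cdc-48.1 of the 4 was left, beside 2.51% of all genes.

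**Figure D3:**
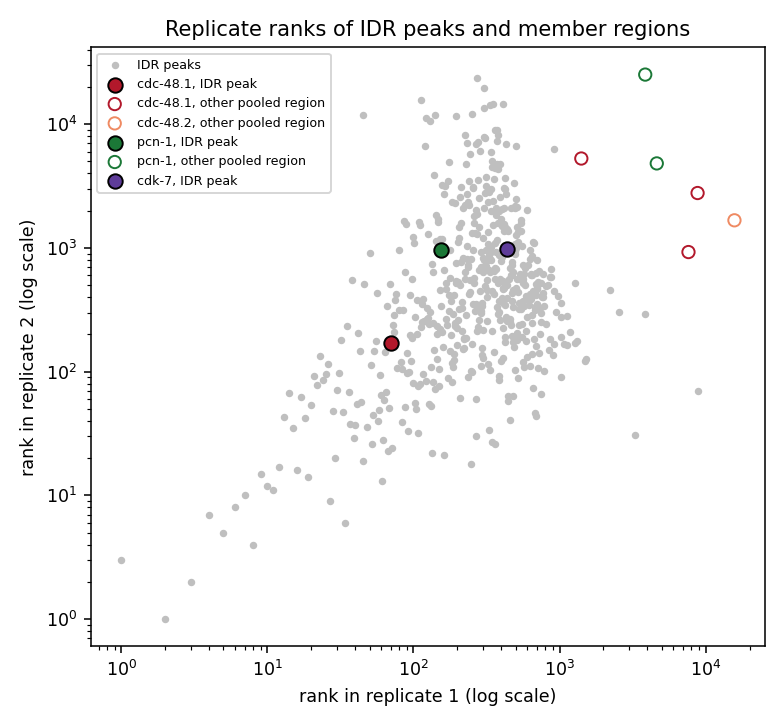
Each point is a region, with its rank in replicate 1 (x axis, log scale) and in replicate 2 (y axis, log scale). Grey points are the IDR peaks with a summit within 150 bp in both replicates, filled colours the peaks of cdk-7, pcn-1 and cdc-48.1, and open circles the other pooled regions of the genes that both replicates hold. The filled points lie among the grey points at ranks 70, 155 and 434 in replicate 1, and the open circles lie at rank 1410 and beyond, a range that some grey points also reach.

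The promoter peaks of other genes with the most similar pair of replicate signals were found among 172 gene and peak pairs, by Euclidean distance of the log2 signal values of the replicates. For cdc-48.1 these were Y39B6A.43 (signal values 203 and 61.3), ufbp-1 (185 and 65.2) and ifet-1 (190 and 72.4). The ifet-1 peak is shared with rps-1, which is therefore equally similar and whose 5′ end lies nearer to the summit. For pcn-1 they were sto-4 (163 and 43.7) and the pair cap-2 and gmps-1, which share a peak (150 and 43.0). For cdk-7 they were gst-27 (121 and 47.98), F01G10.10 (119 and 42.4) and lin-9 (129 and 48.5). Likeness here is of peak height in 2 libraries and of nothing else.

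Other genes of the same pathways were read from lists. From 5 lists of replication factors, CDKs and cyclins with their regulators, mitotic regulators, CDC-48 with its partners, and TFIIH subunits, 139 of 146 symbols matched a gene. Without the 4 members, 4 of 135 had an IDR summit in the gene or 1000 bp upstream, or 2.96%, near the 2.4% of all genes. In the promoter window it was 2 of 135, or 1.48%, beside 0.886%. A pooled summit with a q-value under 0.05 lay at 11 of 135, or 8.15%, beside 4.15% of all genes. Among the 575 strongest regions of a replicate the share was 4.44% in replicate 1, beside 2.45%, and 2.96% in replicate 2, beside 2.51%. A pooled candidate region lay at 102 of 135, or 75.6%, beside 45.9% of all genes, and the listed genes were longer, with a median of 3056 bp against 2027 bp. The part of length in this was not tested.

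By list, without the 4 members, an IDR summit was found at 1 of 45 replication genes, 2 of 36 CDKs, cyclins and regulators, 0 of 29 mitotic regulators, 1 of 18 partners of CDC-48 and 0 of 9 TFIIH genes, beside 2.4% of all genes. With the members, the median signal of the strongest pooled region was 82.5 for replication genes, 82.2 for CDKs and cyclins, 76.3 for mitotic regulators, 78.9 for CDC-48 and partners and 80.2 for TFIIH. It was 78.3 for all genes with such a region.

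The 4 further genes with an IDR summit were cdk-5, tim-1, cye-1 and ufd-3. Other genes lay within 1000 bp of each of these summits. The summit at cdk-5, a cyclin-dependent kinase of neurons, had a pooled signal value of 389 and lay in the 3′ untranslated part, 49 bp upstream of the 5′ end of kel-3. The summit at tim-1, the worm relative of Timeless, had a value of 248 and lay 381 bp upstream of tim-1 but inside the spliced leader gene sls-2.8 and the noncoding gene Y75B8A.49. It was also 115 bp upstream of Y75B8A.23. The summit in an intron of cye-1, the cyclin E gene, had a value of 203 and lay inside the tRNA gene WBGene00022955. These neighbours were chosen after their values were seen.

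The gene ufd-3, whose relatives in yeast and mammals bind CDC-48, had a summit 166 bp upstream of its 5′ end and no other 5′ end within 1000 bp. The gene C05C10.5 ended 155 bp from the summit, nearer than ufd-3. The signal value was 169 in the pooled list, 133 in replicate 1 and 22.7 in replicate 2. It ranked 335 in replicate 1 but 14220 of 25275 in replicate 2, where its signal value was under that list's median of 23.7. Of the other CDC-48 partners, ufd-1 reached a pooled signal value of 131 at 210 bp upstream, outside the IDR list, and hecd-1 114 at its 3′ end. Their ranks were 2056 and 7920 in replicate 1 and 925 and 661 in replicate 2. The 5′ end of another gene lay within 500 bp of the hecd-1 summit.

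The highest of the listed genes without an IDR summit lay, by that choice, under the IDR limit. The clamp loader gene rfc-3, whose product loads PCNA, had a pooled signal value of 150 in a coding exon (rank 637), with rank 1209 in replicate 1 and 222 in replicate 2. The gene of the single-strand binding protein rpa-2 had 146 at 746 bp upstream, where replicate 2 had no summit within 150 bp. For top-2, topoisomerase II, the value was 124 at 274 bp upstream, with rank 1437 in replicate 1 and 6857 in replicate 2. In TFIIH, after cdk-7, the highest were gtf-2H4 (97.6), xpd-1 (91.7) and gtf-2H2C (83.6). The highest of the remaining CDK and cyclin list were lin-35, the retinoblastoma gene (147), cdk-11.1 (125) and cks-1 (104). In that order their ranks were 536, 1272 and 1528 in replicate 1 and 6646, 2951 and 11646 in replicate 2. Of the mitotic genes, emb-30, a subunit of the anaphase-promoting complex, reached 153 just under the IDR limit. It ranked 452 in replicate 1 but 6482 in replicate 2. The checkpoint genes mdf-1 and mdf-2 reached 139 and 136, at ranks 1015 and 1011 in replicate 1 and 1252 and 1323 in replicate 2. Within 500 bp of the summits at rpa-2, top-2, lin-35, cks-1, gtf-2H2C and mdf-2 lay the 5′ end of another gene. At mdf-2 the summit lay in a 3′ untranslated part, and a small RNA gene was within 250 bp.

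**Figure D4:**
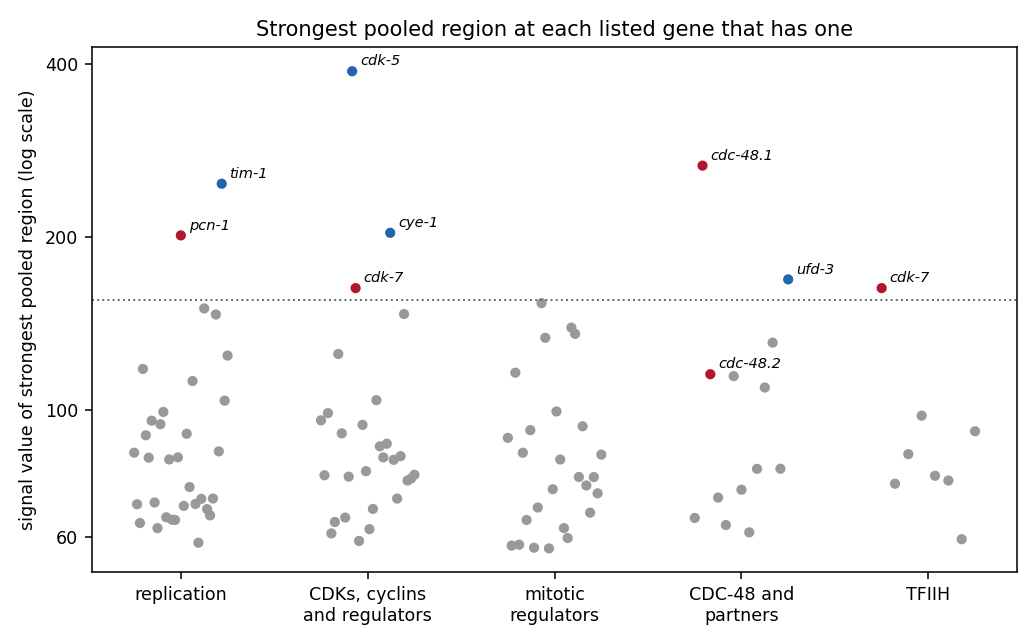
Each point is a listed gene with a pooled region, and the y axis is the signal value of its strongest pooled region (log scale), in columns by list. Red points are the 4 genes cdc-48.1, cdc-48.2, pcn-1 and cdk-7 (cdk-7 is in 2 lists), blue points other genes with an IDR summit, grey points the rest, and the dotted line is the lowest IDR signal. Most points lie under 100, and cdc-48.2 lies at 115 under the line.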

How the data were processed

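ChIP-seq of GFP-tagged F10E7.11 was analysed from the authors' deposited ce11 peak lists, in which the signal value and a −log10 of the q-value are given for each region of each replicate, of the pooled replicates and of the IDR list. Per the deposited file lists, a control library entered the calling. It was not analysed here. Which aligner, caller and IDR threshold were used is not given in the sources used here. Lists in ce10 were not used.

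Genes are those of Ensembl release 115 on WBcel235, with RefSeq sequence and, as an alternative, RefSeq gene bounds. A region belonged to a gene when its summit lay in the gene or 1000 bp upstream. A replicate region was matched to a pooled region when the summits were within 150 bp. Proteins were aligned globally with BLOSUM62. The members, lists and words were chosen with earlier results of these data known, and no test was made. Named genes are the 4 members, their neighbours within 1000 bp, listed genes with an IDR summit, the next 3 of each list by pooled signal, and the 3 most similar promoter peaks. Counting was tested on simulated summits. Alternatives were another window, region overlap, each replicate alone, a stricter or q-based list, and other 5′ ends or ranks. Python 3.11.15, numpy 2.4.6, pandas 2.3.3 and matplotlib 3.10.9 were used.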

Additional observations from a re-analysis of the deposited data

How the results depend on the processing

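An IDR summit lay at 3 of the 4 genes with 500 or 2000 bp upstream, the promoter window alone, or any overlap of the region. It lay at 2 among the 287 strongest IDR peaks. By RefSeq gene bounds it also lay at 2, and cdk-7 was missed, its summit being at -1489 bp from the RefSeq 5′ end. Pooled regions with a q-value under 0.05, in place of the IDR list, lay at 3. Leaving out a replicate gave from 1 gene (cdc-48.1, without replicate 1) to 3. That count took the 575 strongest regions of the other replicate, with no IDR call. The listed genes with a summit, 7 in all, became 5 with the promoter window or the 287 strongest peaks and 14 with the q-value rule, beside 4.15% of all genes, and leaving out a replicate gave 5 to 9. By q-value cdc-48.1 took rank 1, shared with pcn-1 among 274 tied regions. Over the gene with 1000 bp upstream, the ratio of cdc-48.1 to cdc-48.2 ran from 1.67 without replicate 1 to 2.41 without replicate 2. No ratio exists in the pooled promoter windows, where cdc-48.2 has no region. In the promoter windows of replicate 2 the ratio was 2.61. The RefSeq and ratio alternatives were chosen after seeing the data. With 2 replicates, 1 group and unknown depth, no difference here has a test.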
